A study of Homo sapiens with 6 samples.

Results

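The genes described here handle zinc in 22RV1 cells, an established human line of castration-resistant prostate cancer. They are the metallothioneins, the metal-sensing transcription factor MTF1, the SLC30A transporters (ZnT) and the SLC39A transporters (ZIP). They were chosen by gene symbol and comprise 36 of the 24872 rows of the deposited expression table, namely 11 metallothioneins, MTF1, 10 SLC30A genes and 14 SLC39A genes. RNA was sequenced from 6 libraries in 3 groups of 2, all labelled day 2. The NC group is the control, whose nature the labels do not give. The OE group overexpressed the long noncoding RNA MAGI2-AS3, and the mimics group carried miR-106a-5p mimics by its label, although the treatment text speaks of plasmids for both agents. All groups share the same line and serum-containing RPMI medium. No label says that replicates came from separate cultures. A p-value here weighs a difference between groups only against the spread between libraries of the same group, and that spread may be technical.

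Zinc is a cofactor of many enzymes and transcription factors, and free zinc ions are toxic, so cells hold them in a narrow range. Metallothioneins are small cysteine-rich proteins that bind zinc and copper. MTF1 senses free zinc and binds metal response elements (MREs) before the metallothionein genes and SLC30A1. ZnT proteins move zinc out of the cytosol, across the plasma membrane or into organelles, whereas ZIP proteins move it into the cytosol. The healthy prostate is known for a high zinc content, and prostate cancer for its loss.

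The promoters of 4 genes are shown first, since metallothionein genes moved together below. They are RefSeq sequences on GRCh38.p14, each of 300 bases, most of them before the start that RefSeq annotates and the last 50 after it, with matches to the MRE core in capitals. The core was searched as TGCACNC or TGCGCNC on both strands. MT2A and MT1X rose in the mimics libraries, MT1H lies in the same gene cluster but was listed at 0 in 5 of 6 libraries, and SLC30A1 is a known MTF1 target outside the cluster.
MT2A (chr16:56608334-56608633, plus strand): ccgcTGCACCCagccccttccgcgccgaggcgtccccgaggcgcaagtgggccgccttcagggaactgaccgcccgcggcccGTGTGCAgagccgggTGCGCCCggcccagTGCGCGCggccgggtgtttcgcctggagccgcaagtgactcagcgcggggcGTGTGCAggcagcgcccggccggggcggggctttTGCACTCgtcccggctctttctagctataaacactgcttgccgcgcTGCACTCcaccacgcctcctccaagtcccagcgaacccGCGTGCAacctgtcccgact
MT1X (chr16:56682220-56682519, plus strand): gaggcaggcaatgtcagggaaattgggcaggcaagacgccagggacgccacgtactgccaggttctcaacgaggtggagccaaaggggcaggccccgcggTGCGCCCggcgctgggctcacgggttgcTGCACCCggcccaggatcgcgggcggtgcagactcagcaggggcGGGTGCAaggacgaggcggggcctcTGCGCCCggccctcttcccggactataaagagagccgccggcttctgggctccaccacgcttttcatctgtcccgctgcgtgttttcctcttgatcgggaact
MT1H (chr16:56669564-56669863, plus strand): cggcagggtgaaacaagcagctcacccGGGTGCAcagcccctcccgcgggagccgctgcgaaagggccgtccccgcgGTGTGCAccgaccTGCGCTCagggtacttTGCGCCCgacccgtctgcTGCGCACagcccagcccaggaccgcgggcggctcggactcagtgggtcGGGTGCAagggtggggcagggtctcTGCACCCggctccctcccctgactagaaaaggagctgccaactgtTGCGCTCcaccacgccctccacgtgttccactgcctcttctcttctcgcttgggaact
SLC30A1 (chr1:211579112-211579411, minus strand): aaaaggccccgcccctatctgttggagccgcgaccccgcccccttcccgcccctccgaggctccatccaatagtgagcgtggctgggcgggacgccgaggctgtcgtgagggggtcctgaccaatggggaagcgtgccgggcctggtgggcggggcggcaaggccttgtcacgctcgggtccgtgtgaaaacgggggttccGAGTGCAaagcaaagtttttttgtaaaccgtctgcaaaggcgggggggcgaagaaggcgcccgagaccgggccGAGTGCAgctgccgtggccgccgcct
MT2A and MT1H each held 8 matches, MT1X held 4 and SLC30A1 held 2, with no overlap between matches. At least 1 match was present in 29.6% of 35116 promoters of the same length, at least 2 in 8.60%, at least 4 in 0.601% and at least 6 in 0.0740%. The promoter of MTF1 itself held none. A sequence was found for 27 of the 36 members. MT1E, MT1G, MT1A, MT1F, MT1M and MT3 were among the members without a sequence, so their promoters were not searched. MT1B and MT4, which were listed at 0 in all 6 libraries, held 3 each. GENCODE 29, used for the gene loci below, starts some of these genes elsewhere: the MT2A window lies after its GENCODE start, and the SLC30A1 window lies wholly before it.

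The agent given to the mimics group is shown next, from RefSeq, with the seed (bases 2 to 8) in capitals.
miR-106a-5p: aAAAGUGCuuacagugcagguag
A 3′ UTR match to this seed reads GCACTTT. None of the 11 metallothionein transcripts held it in its 3′ UTR (GENCODE 29 principal transcripts). Among the 22 members with enough expression for a test, 6 held at least 1 match, or 27.3%, against 22.1% of 12136 tested coding genes, whose 3′ UTRs were shorter (median 1061 bases against 1415 for the members). Matches in the metal sensor, the surface exporter and a Golgi exporter, in 30-base windows, were the following.
MTF1: aaaataaaaaaGCACTTTaggttattttat
SLC30A1: ttctttacaatGCACTTTctaacccattgt
SLC30A7: ggtacattaagGCACTTTataaatggactt
A match of letters is a description and not a measured binding site.

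Values are FPKM (fragments per kilobase of transcript, scaled to library depth), in which transcript length is divided out. Of the 36 members, 22 had a mean of at least 0.5 FPKM and were tested, namely 4 metallothioneins, MTF1, 6 SLC30A and 11 SLC39A genes. Limma was fitted on log2(FPKM + 0.5) over all 13998 rows at that level, two-sided, with Benjamini-Hochberg adjustment over those rows and a threshold of 0.05. Log2 changes below refer to log2(FPKM + 0.5), so those of low genes come out too small.

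The FPKM sums of the libraries were alike, at 402526 to 429262. Since FPKM is scaled to library depth, these sums do not give the depth. The luminal keratin KRT8 was expressed in every library, and KRT5, CD3E, CDH5, KDR and FAP, which mark basal, immune, endothelial and fibroblast cells, were listed at 0 in all 6. Other markers on the same lists were not at 0. The basal keratin KRT15 was at 0.712 to 1.60 FPKM over the 6 libraries. The macrophage marker CD68 was at 1.94 and 1.87 FPKM in NC and at 2.61 and 2.96 in mimics (unadjusted p = 0.0216, adjusted p = 0.121 by limma). The 8 fibroblast markers summed to 86.0 and 89.6 FPKM in NC, 86.6 and 90.6 in OE and 180 and 108 in mimics, nearly all of it LUM (lumican). LUM did not pass in mimics against NC (unadjusted p = 0.0102, adjusted p = 0.0809 by limma). Nor did COL1A1, COL3A1 or DCN (unadjusted p = 0.0106, 0.0140 and 0.0448, adjusted p = 0.0827, 0.0962 and 0.182 by limma). For each of these 4, both mimics libraries lay above both NC libraries. COL3A1 and, narrowly, COL1A1 reached the filter on low values only through the mimics libraries. COL1A1 was lower in OE than in mimics (adjusted p = 0.0229 by limma). The mimics libraries also stood apart in their 13 mitochondrially encoded genes, which took 6.23% of the FPKM sum in replicate 1 and 0.533% in replicate 2, against 8.29% to 9.67% in NC and OE. None of these 13 passed in mimics against NC by limma (11 at an unadjusted p under 0.05), and 13 passed without mimics replicate 1 and 3 without mimics replicate 2. Apart from a refit scaled without the mitochondrially encoded genes, the part of these markers and of the mitochondrial share in the results below was not tested. In bulk RNA, a change per cell and a change in the share of cells cannot be told apart.

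Metallothionein RNA was higher in mimics than in NC or OE. All 4 metallothioneins that were tested rose in mimics against NC (4 of 4, where 4.29% of all rows tested were called higher and 3.71% lower). Each was expressed well above 0.5 FPKM in NC as well, so the filter on low values did not select them for their rise. No tested transporter and no other member passed in this comparison. By limma, 3 of 6 exporters and 3 of 11 importers had an unadjusted p under 0.05, in either direction, against 25.8% of all rows. The 11 genes summed to 43.2 and 48.4 FPKM in the NC libraries, to 28.9 and 34.8 with OE, and to 117 and 183 with mimics. The mimics mean was 3.27 times, and the OE mean 0.696 times, that of NC.

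**Figure D1:**
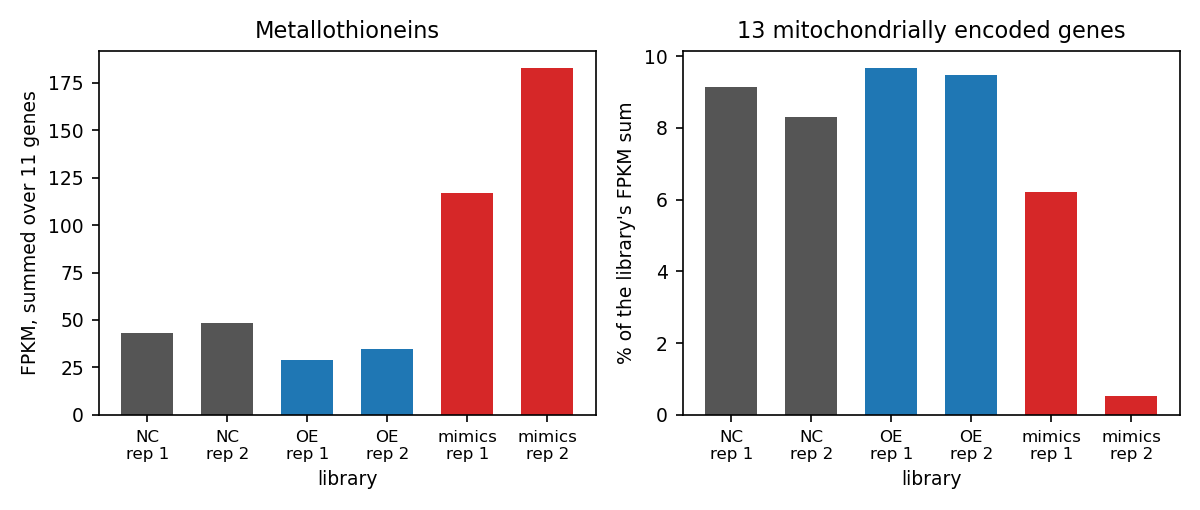
Left, FPKM summed over the 11 metallothionein genes in each library. Right, percent of each library's FPKM sum taken by the 13 mitochondrially encoded genes. The mimics libraries had the highest metallothionein sums (117 and 183 FPKM), and the library with the higher of these had the lowest mitochondrial share (0.533%).

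MT1X, a broadly expressed metallothionein, was at 7.61 and 8.22 FPKM in NC, 6.14 and 6.07 in OE and 34.2 and 44.2 in mimics. Both mimics libraries lay far above the other 4, and both OE libraries lay a little under both NC libraries. The ratio of means was 4.96 for mimics to NC, and the log2 change was 2.23 (95% confidence interval 1.91 to 2.54, adjusted p = 0.000206 by limma).

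MT1G, which encodes an inducible metallothionein, was at 4.59 and 4.12 FPKM in NC, 3.98 and 4.77 in OE and 18.6 and 31.1 in mimics. NC and OE overlapped, and mimics did not overlap with either. It rose 5.71-fold by the ratio of means, a log2 change of 2.34 (1.84 to 2.84, adjusted p = 0.00132 by limma).

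MT2A, the most abundant metallothionein of these cells, was at 22.6 and 28.0 FPKM in NC, 14.1 and 17.5 in OE and 49.2 and 87.0 in mimics. The 3 groups did not overlap, with OE lowest and mimics highest. Its log2 change in mimics against NC was 1.36 (0.81 to 1.90, adjusted p = 0.0139 by limma).

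MT1E showed the smallest rise of the 4. It was at 8.28 and 7.63 FPKM in NC, 4.64 and 6.29 in OE and 13.7 and 19.4 in mimics, again with no overlap between groups. The log2 change in mimics against NC was 0.99 (0.56 to 1.43, adjusted p = 0.0182 by limma).

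Replicate 2 of mimics was above replicate 1 for each of these 4 genes. Against the NC mean, the log2 changes in replicates 1 and 2 were 2.05 and 2.41 for MT1X, 1.98 and 2.70 for MT1G, 0.95 and 1.77 for MT2A, and 0.75 and 1.24 for MT1E. All 4 calls held without either mimics library and under each of 3 other scalings between libraries. The calls of MT2A and MT1E did not hold without NC replicate 1 (limma adjusted p = 0.136 and 0.120) or without NC replicate 2 (0.0763 and 0.129), which left a single control library, so that the call count fell from 4 to 2. Those of MT1X and MT1G held in all 16 alternative settings, with adjusted p of at most 0.0145 and 0.0336.

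The makeup of the metallothionein pool was also compared. MT2A made up 55.2% ± 3.93 of the summed FPKM in NC, 49.6% ± 1.02 with OE and 44.9% ± 3.85 with mimics (mean ± SD of 2 libraries). MT1X made up 17.3% ± 0.437 in NC, 19.3% ± 2.71 in OE and 26.8% ± 3.63 in mimics. MT1G made up 9.57% ± 1.49, 13.7% ± 0.0433 and 16.5% ± 0.756, and MT1E 17.5% ± 2.40, 17.1% ± 1.43 and 11.2% ± 0.789. Both OE libraries lay above both NC libraries for MT1G and below them for MT2A, and overlapped with NC for MT1X and MT1E. The NC and mimics libraries did not overlap for any of these 4 shares, but an exact permutation test of 2 against 2 cannot give a two-sided p below 0.333, so they stand as a description.

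The 11 genes lie in a single cluster on chromosome 16 (GRCh38, GENCODE 29, chr16:56565049-56684196), 10 of them on the plus strand and MT1G (chr16:56666731-56668065) on the minus strand. MT2A (chr16:56608199-56609497) and MT1E (chr16:56625475-56627112) are neighbours in it, and MT1X (chr16:56682424-56684196) is at its end. Genes listed at or near 0 lie between MT1E and MT1G and between MT1G and MT1X. MT4, a gene of stratified epithelia, MT1A and MT1B were listed at 0 in all 6 libraries. MT1H and MT1M were above 0 only in mimics replicate 2, at 0.235 and 0.194 FPKM.

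MT3, known from the brain, was at 0 and 0.0741 FPKM in NC, at 0 in both OE libraries and at 0.442 and 0.197 in mimics. MT1F was at 0.0695 and 0.276 FPKM in NC, 0 and 0.150 in OE and 0.489 and 0.351 in mimics. Both genes were highest in the mimics libraries, but they were below the filter and were not tested.

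**Figure D2:**
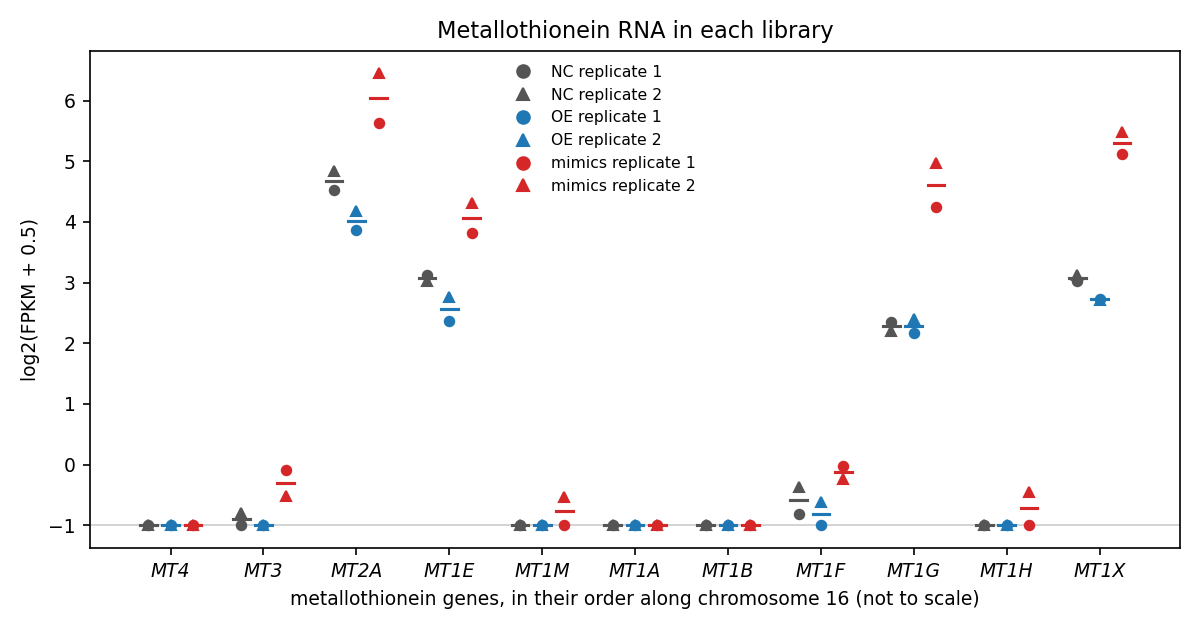
RNA level of each metallothionein gene in each library, as log2(FPKM + 0.5), in gene order along the cluster. Points are libraries, short lines are means of 2 libraries, and the grey line marks 0 FPKM. MT2A, MT1E, MT1G and MT1X were expressed in every library and were highest in both mimics libraries, with other genes of the cluster at or near 0.

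Read assignment within this family is uncertain to some extent, since its members are near copies. Each of the 4 expressed genes has a coding sequence of 183 bases. The closest relative by coding identity was MT2A for MT1G (95.1%), MT1A and equally MT1G for MT1E (94.5%) and MT1H for MT1X (92.9%). The longest run of identical bases between transcripts was 96, shared by MT1G and MT1X, and other runs with the expressed genes were 52 for MT1E and 65 for MT2A, both with MT1G. MT1X also shares exons with AC026461.1 on its own strand. These genes are short, so a given FPKM rests on few fragments. A recurring step of low values in single-exon genes, sought only within a narrow range set beforehand, was taken as the value of a single fragment. It was shared by 8 to 14 of 940 such genes, depending on the library. Lengths were those of the GENCODE principal transcripts, 406 bases for MT1G and 786 for MT2A. On this basis MT1G came to roughly 37 to 39 fragments in the NC libraries and 162 to 219 in mimics. MT2A came to 371 to 493 and 828 to 1185. These counts are rough, because few genes shared the step and smaller steps recurred as well. The annotation and transcript lengths behind the deposited FPKM are also not known.

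In OE against NC, no member passed. Of 22 tested members, limma called 0 (3 at an unadjusted p under 0.05), where 0.0143% of all rows were called higher and 0.243% lower. The members at an unadjusted p under 0.05 were MT2A (log2 change -0.66, 95% interval -1.21 to -0.12), MT1E (-0.52, -0.95 to -0.08) and MT1X (-0.35, -0.66 to -0.03), with limma adjusted p of 0.640, 0.653 and 0.704. For these 3, and not for MT1G (0.00, -0.49 to 0.50), both OE libraries lay below both NC libraries. In all, 5 of 22 members did so, against 26.5% of all rows, so that the count over the members is near the background.

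The direct comparison of OE with mimics does not use the NC libraries' values, apart from their part in the estimate of spread. Of 22 members, 5 were lower in OE and 0 higher (2 were higher at an unadjusted p under 0.05, SLC30A7 and SLC39A4, and both are taken up with the transporters), where 5.32% of all rows were called lower and 2.52% higher. The log2 differences were -2.58 for MT1X (-2.89 to -2.26, adjusted p = 8.52e-05 by limma), -2.34 for MT1G (adjusted p = 0.00108), -2.02 for MT2A (adjusted p = 0.00344) and -1.51 for MT1E (adjusted p = 0.00396). These 4 calls held in all 16 alternative settings. The fifth was SLC39A13, described with the importers.

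**Figure D3:**
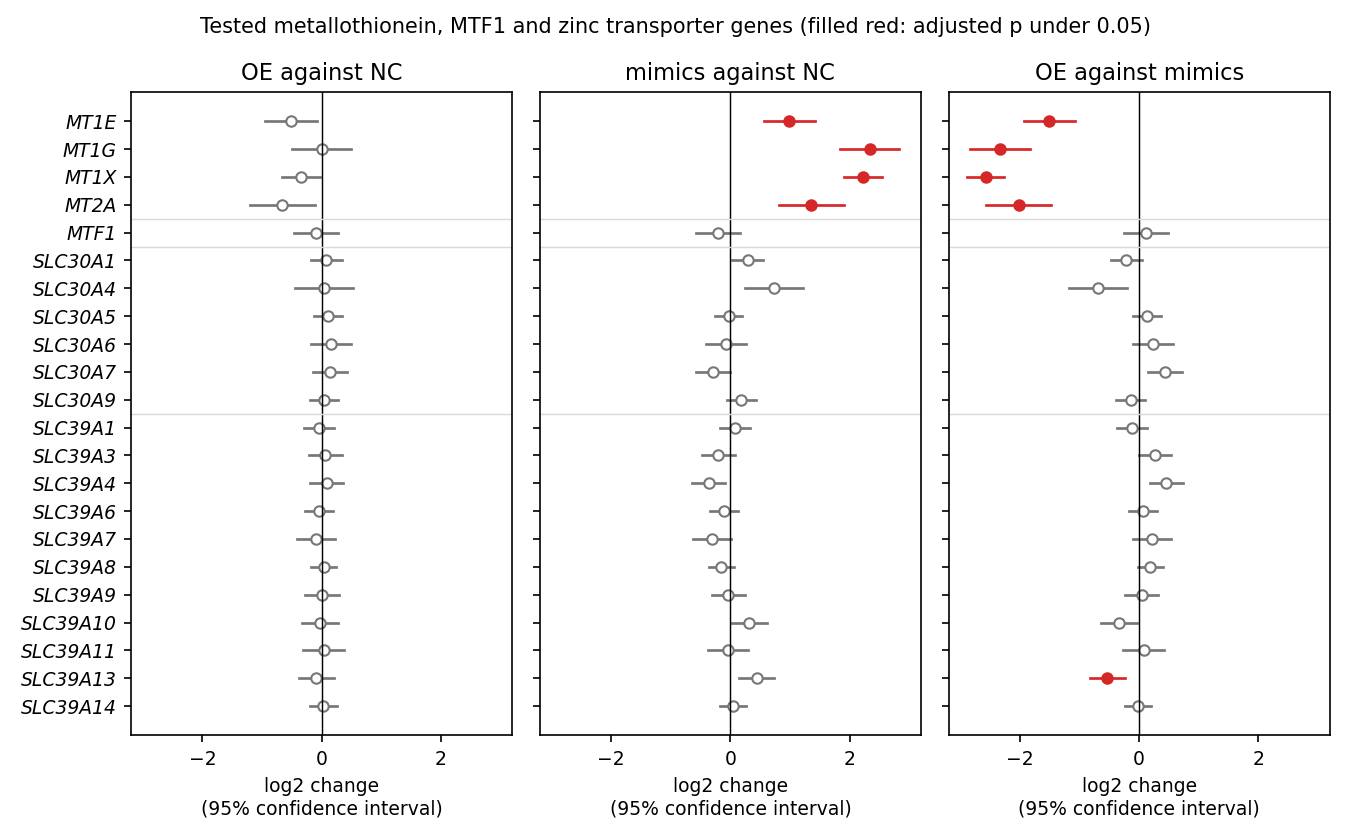
Log2 change, on the log2(FPKM + 0.5) scale, of the 22 tested members in each comparison, with 95% confidence intervals from limma. Filled red points passed an adjusted p of 0.05. The 4 metallothioneins were higher in mimics than in NC and lower in OE than in mimics, while of the transporters SLC39A13 alone passed, in OE against mimics.

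MTF1, the transcription factor that drives metallothionein genes when zinc is high, did not pass at the RNA level. It was at 4.45 and 4.29 FPKM in NC, 4.32 and 3.78 in OE and 3.23 and 4.26 in mimics. Both mimics libraries lay under both NC libraries, replicate 2 only just. Its log2 change in mimics against NC was -0.21 (-0.58 to 0.16, adjusted p = 0.460 by limma).

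Among the zinc exporters, none passed in any of the 3 comparisons. SLC30A1 (ZnT1), the exporter of the plasma membrane and itself an MTF1 target, was at 8.14 and 8.17 FPKM in NC, 8.89 and 8.34 in OE and 9.92 and 10.3 in mimics. The mimics libraries were the highest of the 6, by a ratio of means of 1.24 to NC. The log2 change was 0.29 (0.03 to 0.55, unadjusted p = 0.0312 and adjusted p = 0.151 by limma).

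SLC30A4 (ZnT4), which loads zinc into vesicles, was the only other exporter with an unadjusted p under 0.05 for a difference upward. It was at 0.341 and 0.296 FPKM in NC, 0.295 and 0.394 in OE and 1.05 and 0.697 in mimics. Its mean passed the filter only through the mimics libraries. The log2 change was 0.73 (0.25 to 1.21, adjusted p = 0.0682 by limma), and it passed at 0.0398 without an intensity trend in the variance model. Other genes, AC025580.2 and HMGN2P46, overlap its exons on the opposite strand, and whether the counting used strand is not stated in the sources at hand.

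The exporters of the Golgi and the secretory pathway, SLC30A5, SLC30A6 and SLC30A7, supply zinc to secreted enzymes. SLC30A7 (ZnT7) was at 6.80 and 6.06 FPKM in NC, 7.05 and 7.22 in OE and 5.14 and 5.13 in mimics. Its mimics libraries were the lowest of the 6. The log2 change against NC was -0.30 (-0.58 to -0.01, unadjusted p = 0.0452, adjusted p = 0.183 by limma). Its 3′ UTR held 2 seed matches, whose part was not tested. The other tested members with a match were at -0.21 (MTF1), -0.11 (SLC39A6), -0.07 (SLC30A6), 0.18 (SLC30A9) and 0.29 (SLC30A1) in mimics against NC. In OE against mimics the log2 difference of SLC30A7 was 0.44 (adjusted p = 0.0686 by limma), which passed with quantile normalization (0.0434). SLC30A5 (26.8 ± 0.284 FPKM in NC, 26.3 ± 0.781 in mimics; SD, n = 2) and SLC30A6 (8.84 ± 1.29 and 8.34 ± 0.462) overlapped between NC and mimics. SLC30A9, a zinc exporter of mitochondria, was at 21.5 ± 1.41 FPKM in NC and 24.4 ± 0.0888 in mimics (adjusted p = 0.313 by limma).

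The remaining exporters were near 0. SLC30A8, the transporter of insulin granules, was listed at 0 in all 6 libraries. SLC30A2, SLC30A3, of synaptic vesicles, and SLC30A10, mainly a manganese exporter, had group means between 0.0191 and 0.146 FPKM.

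The importers were the most abundant members. SLC39A6 (ZIP6), which takes up zinc at the cell surface, led with 143 and 135 FPKM in NC, 139 and 131 in OE and 124 and 133 in mimics. Its mimics libraries lay under both NC libraries but overlapped with OE (log2 change against NC -0.11, -0.35 to 0.12, adjusted p = 0.527 by limma). SLC39A1 (ZIP1), regarded as the main zinc importer of prostate cells, followed with 95.6 and 108 FPKM in NC, 96.5 and 101 in OE and 101 and 114 in mimics, with all 3 groups overlapping (0.08, -0.18 to 0.34, adjusted p = 0.703 by limma for mimics against NC). Its exons overlap those of AL358472.7 on the same strand and of CREB3L4 on the opposite strand.

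SLC39A7 (ZIP7), which releases zinc from the endoplasmic reticulum, came next, at 72.6 and 76.2 FPKM in NC, 68.4 and 71.0 in OE and 51.3 and 69.8 in mimics. Mimics lay under NC, with replicate 1 far lower than replicate 2. The change of -0.31 (-0.63 to 0.01, adjusted p = 0.205 by limma) passed only when mimics replicate 2 was left out (-0.53, adjusted p = 0.00850). SLC39A7 lies antisense to exons of RXRB. SLC39A8 and SLC39A14, which also carry manganese and iron, were at 39.9 ± 0.0807 and 38.4 ± 1.27 FPKM in NC and at 36.0 ± 0.731 and 39.7 ± 2.08 in mimics.

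SLC39A13 (ZIP13), a zinc transporter of Golgi and vesicles needed for connective tissue, was the transporter that passed a test (GRCh38, GENCODE 29, chr11:47407132-47416501, plus strand). It was at 4.55 and 4.51 FPKM in NC, 4.09 and 4.38 in OE and 6.21 and 6.49 in mimics. The 3 groups did not overlap. Its log2 difference in OE against mimics was -0.53 (-0.83 to -0.24, adjusted p = 0.0418 by limma), while mimics against NC did not pass (0.44, adjusted p = 0.0704). The call in OE against mimics was lost in 8 of 16 alternative settings, among them the exclusion of NC replicate 1 (0.0811), NC replicate 2 (0.0819), OE replicate 1 (0.305) or OE replicate 2 (0.204), a replicate block (0.0567) and scaling without the mitochondrially encoded genes (0.0818).

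SLC39A4 (ZIP4), the importer of dietary zinc in the gut, was at 13.6 and 15.0 FPKM in NC, 14.4 and 16.1 in OE and 10.3 and 11.7 in mimics. The mimics libraries were the lowest of the 6 (log2 change against NC -0.36, -0.64 to -0.09, unadjusted p = 0.0159, adjusted p = 0.102 by limma). It passed without mimics replicate 2 (adjusted p = 0.0351). In OE against mimics its log2 difference was 0.45 (0.18 to 0.73, adjusted p = 0.0568 by limma), and it passed in 5 of 16 alternative settings, namely quantile normalization (0.0465), scaling without mitochondrially encoded genes (0.0335), upper quartile scaling (0.0475), a replicate block (0.0425) and without mimics replicate 2 (0.0203).

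SLC39A10 (ZIP10), a partner of SLC39A6 that MTF1 is known to repress, was at 17.0 and 14.4 FPKM in NC, 15.6 and 15.0 in OE and 17.7 and 21.6 in mimics. The mimics libraries were the highest of the 6, at a log2 change of 0.32 (0.02 to 0.62, unadjusted p = 0.0412, adjusted p = 0.174 by limma).

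The other tested importers were SLC39A3 (28.1 ± 2.33 FPKM in NC and 24.4 ± 2.51 in mimics), SLC39A9 (25.8 ± 0.626 and 25.3 ± 4.08) and SLC39A11 (6.82 ± 0.193 and 6.67 ± 1.32), none of which passed. SLC39A12, known from the brain, was listed at 0 throughout, and SLC39A2 and SLC39A5 had group means of 0.0320 to 0.162 FPKM.

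Over all 22 tested members, both mimics libraries lay above both NC libraries for 9 and below them for 7, against 27.2% and 25.6% of all rows. For 4 members, MT1E, MT1X, MT2A and SLC39A13, both mimics libraries lay above and both OE libraries below both NC libraries, as they did for 6.26% of all rows. SLC30A7 and SLC39A8 showed the reverse order, whose share of all rows was not counted. The median log2 change in mimics against NC was 1.79 for the 4 metallothioneins, 0.08 for the 6 exporters and -0.04 for the 11 importers, beside 0.00 for all rows. The exporters summed to 72.3 ± 2.87 FPKM for NC, 77.3 ± 5.69 for OE and 75.4 ± 0.342 for mimics, and the importers to 489 ± 8.14, 481 ± 1.01 and 466 ± 39.5 (SD, n = 2).

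**Figure D4:**
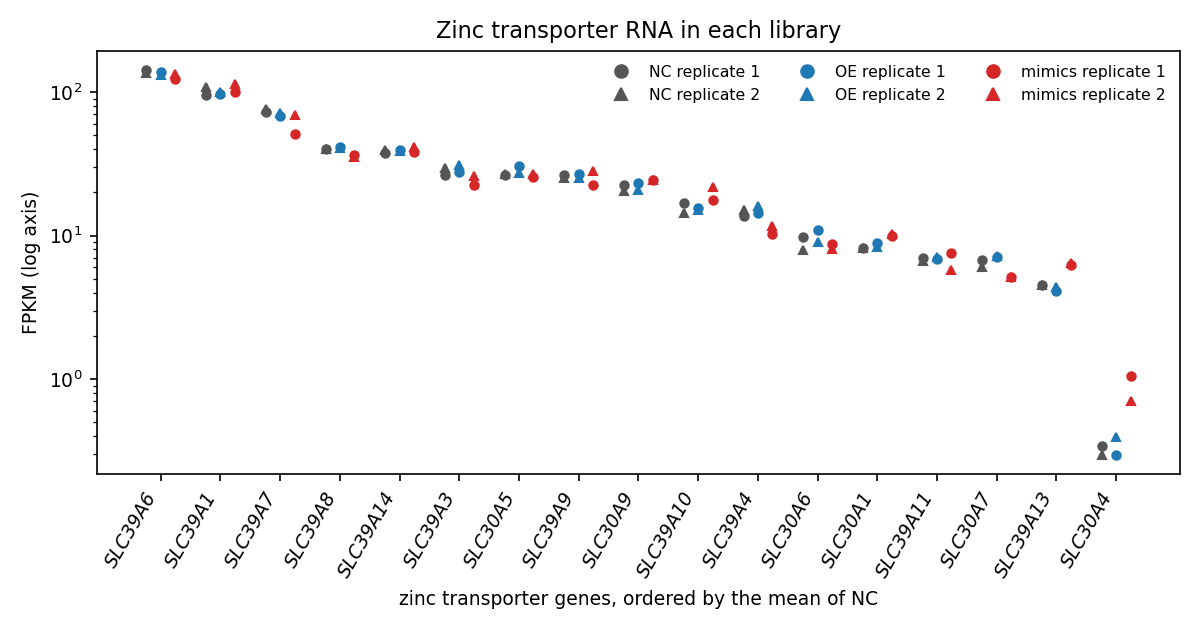
FPKM of the 17 tested zinc transporter genes in each library, on a log axis, ordered by the NC mean. Points are single libraries. SLC39A6, SLC39A1 and SLC39A7 were the most abundant, and for most genes the 3 groups lay close together.

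Other genes of metal and oxidative stress were read from a list of 22, all of which were tested. In mimics against NC, 7 rose and none fell (4.29% and 3.71% of all rows), with a median log2 change of 0.01, and 10 had an unadjusted p under 0.05 (25.8% of all rows). The largest changes were in HMOX1, which degrades heme, from 6.11 ± 0.0422 to 46.0 ± 7.58 FPKM (log2 change 2.80), NQO1, a quinone reductase (1.23), and the ferritin chains FTH1 (1.09) and FTL (0.85). OSGIN1, TXNRD1 and SRXN1 also rose. In OE against NC, HMOX1 alone passed, and 8 of the 22 had an unadjusted p under 0.05, against 6.48% of all rows. The count of 7 became 2 without NC replicate 1 or NC replicate 2 and 4 without OE replicate 1 or OE replicate 2.

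Of 24 other zinc channels, sensors and binders, 11 were tested, and 3 rose in mimics against NC with none falling (4.29% and 3.71% of all rows). They were the zinc peptidase FOLH1, also called PSMA, from 116 ± 0.746 to 206 ± 22.3 FPKM (log2 change 0.82), the zinc enzyme carbonic anhydrase CA12 (0.72) and the zinc finger factor KLF4 (0.61). TRPM2, a cation channel, was at -0.36 and did not pass. None of the 11 passed in OE against NC by limma (0 at an unadjusted p under 0.05). Without NC replicate 1 or NC replicate 2, none of the 11 passed in mimics (4 and 3 at an unadjusted p under 0.05).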

How the data were processed

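RNA was measured in 2 NC, 2 OE and 2 mimics libraries, mapped to groups by their titles. The FPKM values were deposited by the authors in a table of 24872 rows. The submitters' processing notes name HISAT2 2.0.4 and GRCh38, and for counting tool, annotation and strandedness the answer is not given in the sources used here. FPKM divides by each library's total, so a large change in abundant transcripts shifts all other values. Whole reads were not recovered.

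Limma 3.58.1 in R 4.3.3 was fitted to log2(FPKM + 0.5) for the 13998 rows whose mean reached 0.5 FPKM, all 6 libraries in a single model (3 residual and 5.67 prior degrees of freedom), with an intensity trend, and checked on simulated data. The alternatives were other pseudocounts, filters, scalings, libraries, a replicate block and no trend. Full values were given for members that passed and for 8 preset genes, and up to 4 members of each other list by size of change. SLC30A4, SLC30A7, SLC39A4, SLC39A7, MT1F and MT3 were given in full after their values were seen. OSGIN1, TXNRD1, SRXN1 and the glucocorticoid genes that did not pass were also named after their values were seen. Members and lists were chosen with earlier results of these data known. Loci and 3′ UTRs came from GENCODE 29, in which all 36 members matched, and promoters and the microRNA from RefSeq.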

Additional observations from a re-analysis of the deposited data

Results flagged for a closer look

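For 4 members both OE libraries lay below both NC libraries and both mimics libraries lay above them, and OE against mimics passed limma's test. Of all rows tested, 6.26% showed the same order of the 6 libraries. This order by itself puts OE under mimics, so the differences that follow are a description of genes chosen for it. The log2 difference of OE against mimics was -1.51 for MT1E, -2.58 for MT1X, -2.02 for MT2A and -0.53 for SLC39A13. The NC libraries are shared by both comparisons with NC, whereas the difference between OE and mimics does not use their level. The OE side of this split did not pass against NC for any of the 4 (limma adjusted p = 0.653, 0.704, 0.640 and 0.998). SLC30A7 and SLC39A8 showed the reverse order, with OE above and mimics below NC. Neither passed in OE against mimics (adjusted p = 0.0686 and 0.231 by limma). The share of all rows in the reverse order was not counted.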

How the results depend on the processing

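In OE against NC, 0 members were called under all 16 alternatives, with 0 to 3 at an unadjusted p under 0.05. In mimics against NC, the 4 metallothioneins were called under the alternatives other than leaving out an NC library and no filter, which gave 2 (2 to 6 members when leaving out a library). In OE against mimics, 4 to 7 members were called when leaving out a library. In mimics against NC, SLC39A13 passed with upper quartile scaling (0.0485). Of 66 log2 changes of single tested members, none changed sign past the threshold. The replicate numbers were not taken as pairs, since no label ties them to a batch and the deviations of same-numbered libraries correlated at 0.153 (NC and OE), -0.0268 (NC and mimics) and 0.0194 (OE and mimics). With a replicate block, 9 rows were called in OE against NC in place of 36, 1 copper gene in place of 2, and in OE against mimics SLC39A13 was lost and SLC39A4 gained (0.45, adjusted p = 0.0425), at 1 member higher and 4 lower. Other members called in OE against mimics only under an alternative were SLC30A4 with no intensity trend, SLC39A7 without mimics replicate 2 and SLC39A10 without mimics replicate 1.

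Counts over all rows moved more. Without a filter limma called 0 (1334 at an unadjusted p under 0.05), 347 and 325 rows in OE against NC, mimics against NC and OE against mimics, in place of 36, 1120 and 1098. With the 4 compared libraries only they were 120, 618 and 654. Leaving out a library gave 5 (without NC replicate 1 or OE replicate 2) to 121, 65 (without NC replicate 1) to 3018 and 136 (without OE replicate 1) to 2765, each highest without mimics replicate 2. Lists were counted in mimics against NC. The copper list gave 0 without a filter (3 at an unadjusted p under 0.05) and 1 with a filter of 2 FPKM, scaling without mitochondrially encoded genes, the 4 compared libraries only, or no intensity trend. The metal and oxidative stress list gave 3 without a filter and 4 with the 4 compared libraries only, and the glucocorticoid list 2 without a filter. The mitochondrially encoded genes gave 1 after quantile normalization in place of 0. Leaving out a library gave 0 to 4 copper, 0 to 4 zinc binder, 2 to 10 metal and oxidative stress, 0 to 7 glucocorticoid, 6 to 9 hypoxia and p53 and 0 to 13 mitochondrially encoded genes. The cause of these shifts was not tested. Group sizes of 2 limit the precision of every value.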

Other observations

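Copper handling genes were read beside zinc, since metallothioneins bind both metals. Of 19 listed symbols, found in 20 rows, 18 rows were tested, and 2 rose in mimics against NC with none falling (of all rows, 4.29% rose and 3.71% fell). They were LOX, a copper-dependent enzyme that crosslinks collagen, from 1.16 ± 0.170 to 2.97 ± 0.589 FPKM (SD, n = 2, log2 change 1.05, limma adjusted p = 0.0155), and the copper chaperone ATOX1, from 20.9 ± 2.92 to 31.1 ± 4.17 (0.56, adjusted p = 0.0391). The copper exporter ATP7A (0.44) and ceruloplasmin, CP (0.44), did not pass. The count became 0 without NC replicate 1 or NC replicate 2 (2 and 3 at an unadjusted p under 0.05), 1 without OE replicate 1, OE replicate 2 or mimics replicate 1, and 4 without mimics replicate 2.

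Metallothionein genes are also known targets of glucocorticoids. Of 13 listed genes of the glucocorticoid and stress hormone response, 12 were tested, with a median log2 change of 0.30 in mimics against NC. In that comparison 4 rose and none fell (4.29% and 3.71% of all rows). They were GADD45A (1.14), DUSP1 (0.88), TSC22D3 (0.86) and KLF9 (0.79). NR3C2 (0.46), CEBPD (0.35), FKBP5 (0.25), ZBTB16 (0.24), NR3C1 (0.24), CRISPLD2 (0.14), ERRFI1 (0.13) and PER1 (0.04) did not pass, and SGK1 was below the filter. The count became 0 without NC replicate 1 (4 at an unadjusted p under 0.05), 1 without NC replicate 2 and 7 without mimics replicate 2. Of 14 hypoxia and p53 genes, 13 were tested. In mimics against NC 8 rose and none fell (4.29% and 3.71% of all rows), led by ADM (2.86), GDF15 (2.02), CDKN1A (1.80) and VEGFA (1.54). None of either list passed in OE against NC by limma (3 of 12 and 3 of 13 at an unadjusted p under 0.05, against 6.48% of all rows).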
